A study of Mus musculus with 6 samples.

Results

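The genes described here are 10 genes of the blood-brain barrier: the junction genes Cldn5, Ocln and Tjp1, the efflux pump genes Abcb1a and Abcg2, the uptake and exchange carrier genes Slc2a1, Mfsd2a, Slco1c1 and Slco1a4, and Plvap, a gene of leaky vessels. They were chosen by gene symbol from the 32285 genes of the deposited count matrices, by a rule that uses no measured value but with earlier results of these data known, and each symbol was found under 1 gene identifier. For each of them the levels were taken in nuclei that are endothelial-like, meningeal fibroblast-like, choroid plexus-like or like another cell type by marker genes, and nuclei of LPA-injected mice were compared with those of vehicle-injected mice.

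The mice were C57BL/6 S-56 neonates that received 5 µl of lysophosphatidic acid (LPA), a bioactive lipid found in blood, or of vehicle (0.01% BSA) in the right lateral ventricle at P7, as a model of post-hemorrhagic hydrocephalus. Brains without olfactory bulbs and cerebellum were collected at P15 from perfused animals, and 3 libraries were made per group. Both groups had anesthesia, surgery and an injection, an uninjected group was not analysed here, and the LPA concentration given to these animals is not stated in the labels. Nuclei were stained for NeuN, a protein of neuronal nuclei, and NeuN-negative nuclei were sorted and profiled with the 10x Genomics 3′ v3 kit. By Xist and genes on chromosome Y, 1 LPA library and 2 vehicle libraries came from males. The labels number the libraries 1 to 3 in each group, and the study's captions call the values of single libraries those of individual mice.

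The endothelium of brain vessels is sealed by tight junctions, lacks fenestrae and carries little vesicle transport, so that most solutes cross it only through carriers. Claudin-5, occludin and ZO-1 (Tjp1) build the junction, P-glycoprotein (Abcb1a) and BCRP (Abcg2) pump lipophilic compounds back into the blood, and GLUT1 (Slc2a1) brings in glucose. Mfsd2a carries lysophosphatidylcholine lipids with docosahexaenoic acid and restrains vesicle transport, Slco1c1 carries thyroid hormones, and Slco1a4 carries organic anions. Plvap forms the diaphragms of fenestrae and is low in mature barrier vessels. Around the brain, arachnoid cells and the epithelium of the choroid plexus form barriers of their own with partly the same genes.

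Together the 6 libraries held 57443 nuclei after filtering, with 48852970 to 65688644 UMIs per library as deposited and median depths of 3732 to 4578 UMIs per nucleus kept. Levels are given as CPM, the UMIs of a gene per 1000000 UMIs of all nuclei of that type in a library, as mean ± SD over 6 libraries where groups are pooled. Pairs of libraries shared 16 to 39 cell barcodes. No 2 libraries of a group were alike within sampling noise: a chi-square test of their summed UMIs over genes gave 13.3 to 26.8 per degree of freedom. Endothelial-like nuclei numbered 1048, with 138 to 216 per library and 371831 to 572483 UMIs in all per library. In them the 14 endothelial markers, among them Flt1, Ptprb and Tek, summed to 16753 to 17663 CPM in LPA and 15702 to 16510.2 CPM in vehicle libraries, and each marker was detected in both groups. A further 207 nuclei carried the same markers together with hemoglobin and pericyte genes (Hbb-bs, Hba-a1, Rgs5) and are called Hbb-bs-led here. Other groups were meningeal fibroblast (2896 nuclei), choroid plexus (949), ependymal (1237), pericyte (1232), astrocyte (10314), oligodendrocyte precursor (4997), oligodendrocyte (7958), neuron (9063), microglia (1877) and macrophage (210). No cluster met the limits for arachnoid border cells, so 3 clusters of the meninges are named by their leading genes, as Slc47a1-led (1020), Dpp4-led (305) and Gm6260-led (231). The other 13899 nuclei carried markers of several types, or too few, or were mostly called doublets, and stayed unnamed. Names such as endothelial mean nuclei that are like this type by its markers.

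Cldn5, claudin-5, was the most restricted of the junction genes. It lies at chr16:18776847-18778262, + strand (mm10, GENCODE M21). Its level was 2239 ± 363 CPM (SD, n = 6) in Hbb-bs-led nuclei and 1002 ± 144 CPM in endothelial nuclei, with ranges that did not overlap. Pericytes came next at 23.3 ± 8.44 CPM, and endothelial nuclei held 36.1% of all Cldn5 UMIs of a library on average. Occludin (chr13:100496507-100552718, - strand) was found in endothelial (310.4 ± 39.1 CPM) and Hbb-bs-led nuclei (295 ± 38.7 CPM), whose ranges overlapped. Below these came Dpp4-led nuclei at 220.3 ± 37.4 CPM, choroid plexus at 107 ± 9.77 CPM and ependymal nuclei at 77.3 ± 25.1 CPM, and of these only choroid plexus and ependymal nuclei overlapped. Tjp1 (chr7:65296165-65527781, - strand), the scaffold protein ZO-1, was present in every type, from 194 CPM in macrophage to 3405 ± 432 CPM in Dpp4-led nuclei. Endothelial nuclei (1932 ± 122 CPM) came next, ahead of Hbb-bs-led (1501 ± 217 CPM) and Gm6260-led nuclei (1498 ± 410.2 CPM), which overlapped each other. The Hbb-bs-led range stayed below the endothelial range, and the Gm6260-led range reached into it. Endothelial nuclei thus gave only 2.76% of the Tjp1 UMIs. The annotation puts Gm44794 and Gm44792 on the same strand within Tjp1, and UMIs in such overlaps cannot be assigned with certainty.

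Both efflux pumps were found in endothelial and in meningeal nuclei. Abcb1a (chr5:8660077-8748575, + strand), the P-glycoprotein gene, was at 761 ± 143 CPM in Hbb-bs-led, 726 ± 81.3 CPM in endothelial, 487 ± 92.3 CPM in Dpp4-led, 382 ± 120.2 CPM in Gm6260-led and 249 ± 28.6 CPM in Slc47a1-led nuclei. Each of these ranges overlapped its neighbor in that order, and the Slc47a1-led range did not overlap the next type, macrophage at 22.2 CPM. In meningeal fibroblasts Abcb1a was at 7.38 ± 1.85 CPM. Abcg2 (chr6:58584523-58695676, + strand), the BCRP gene, followed the same types, at 561 ± 95.8 CPM in endothelial, 490.2 ± 96.5 CPM in Gm6260-led, 454 ± 34.9 CPM in Slc47a1-led and 421 ± 120.0 CPM in Hbb-bs-led nuclei, with overlap between neighbors. Dpp4-led nuclei were lower, at 213 ± 22.0 CPM, and microglia (93.1 ± 17.9 CPM), pericytes (92.7 ± 13.3 CPM) and meningeal fibroblasts (79.4 ± 12.1 CPM) lower still. Endothelial nuclei gave 31.5% of the Abcb1a UMIs and 13.7% of the Abcg2 UMIs, and unnamed nuclei 28.8% and 29.3%. Abcb1a has a close paralog, Abcb1b, and reads that fit both genes could not be placed, so that its level is uncertain to that extent, also where it overlaps Gm42684 on the same strand.

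The carriers differed in how far their levels extended beyond vessels. Slc2a1 (chr4:119108711-119137983, + strand), the glucose transporter GLUT1, was at 994 ± 145 CPM in Hbb-bs-led and 708 ± 109 CPM in endothelial nuclei, with overlapping ranges, and then at 89.0 ± 31.9 CPM in ependymal and 42.3 ± 8.25 CPM in astrocyte nuclei. It overlaps the small RNA gene Mir1957a on its own strand. Mfsd2a (chr4:122946850-122961188, - strand) was at 282 ± 33.4 CPM in endothelial nuclei and 534 ± 104 CPM in Hbb-bs-led nuclei, without overlap. Astrocytes (84.0 ± 19.5 CPM) and oligodendrocyte precursors (81.3 ± 7.83 CPM) followed with overlapping ranges, and the next type, oligodendrocytes, was at 18.4 ± 4.25 CPM. Astrocytes held 29.0% of the Mfsd2a UMIs against 8.42% for endothelial nuclei. Slco1c1 (chr6:141524368-141570177, + strand), the thyroid hormone carrier, was at 2262 ± 338 CPM in Hbb-bs-led, 1661 ± 173 CPM in endothelial, 526 ± 42.1 CPM in astrocyte and 313 ± 44.0 CPM in choroid plexus nuclei, with no overlap between neighbors. Here too astrocytes gave more of the UMIs (44.8%) than endothelial nuclei (12%). Slco1a4 (chr6:141805440-141856199, - strand), an organic anion carrier, was at 1853 ± 206 CPM in Hbb-bs-led and 1813 ± 159 CPM in endothelial nuclei, which overlapped, then at 205 ± 28.2 CPM in choroid plexus and 73.5 ± 23.9 CPM in meningeal fibroblast nuclei. Slco1a4 lies in a family with the close paralogs Slco1a5 and Slco1a6, so that its UMIs are uncertain in the same way as those of Abcb1a.

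Plvap (chr8:71497765-71511752, - strand) was almost not detected. Endothelial nuclei held 0, 2 and 0 Plvap UMIs in libraries LPA 1 to LPA 3 and 3, 0 and 0 in libraries vehicle 1 to vehicle 3. A count of 0 in an endothelial library allows up to 6.16 to 6.99 CPM (3 counts, counting error only), so that lower levels could not be seen at this depth. The highest mean over libraries was 3.56 ± 2.69 CPM in ependymal nuclei, and neurons gave 43.3% of its UMIs. The annotation has Gtpbp3 on the opposite strand at this place.

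**Figure D1:**
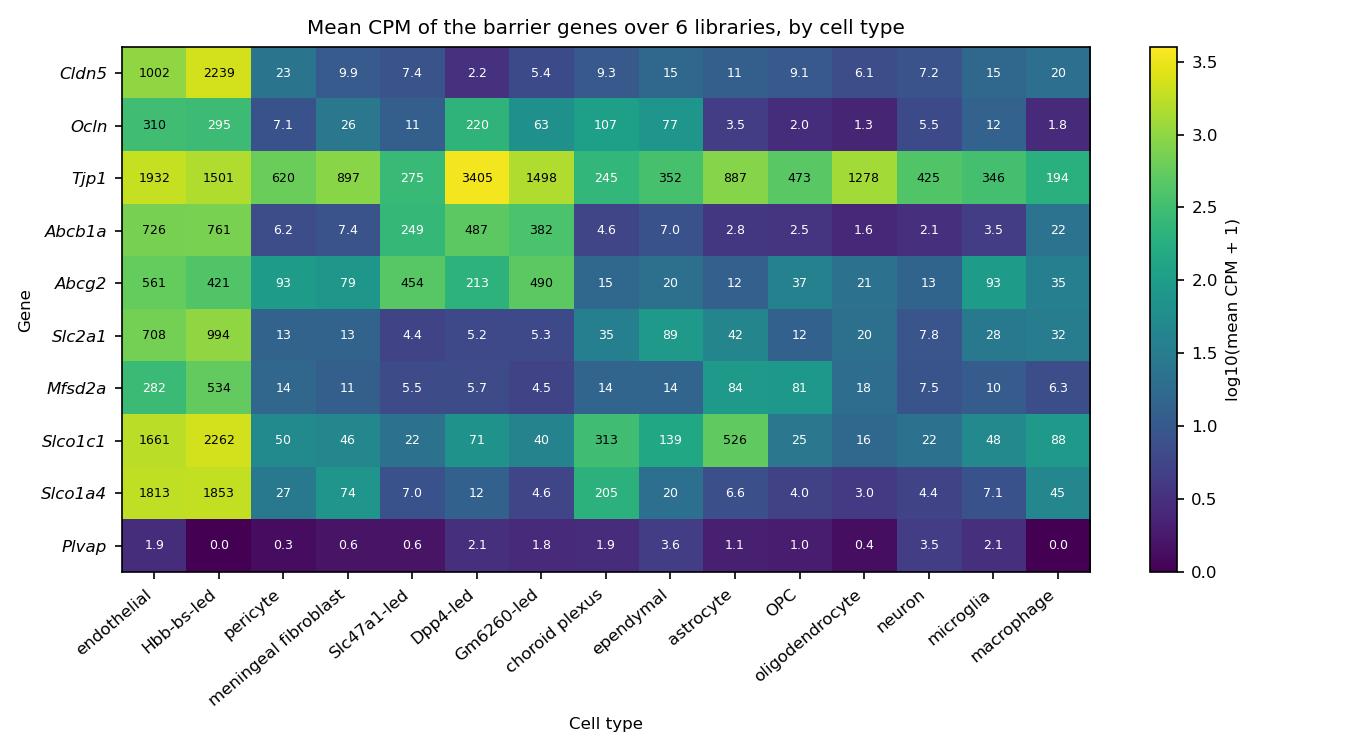
Mean CPM over the 6 libraries of each barrier gene (rows) in each cell type (columns), with the color on a log10(CPM + 1) scale and the mean printed in the cell. Endothelial and Hbb-bs-led nuclei are high for 9 genes, Tjp1 is highest in Dpp4-led nuclei at 3405 CPM, Abcb1a and Abcg2 extend to the Slc47a1-led, Dpp4-led and Gm6260-led nuclei, and Plvap is low in every type.

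The genes whose mean levels over the 11 marker-named types were most like those of each barrier gene were taken by Pearson correlation of log2(CPM + 1), as a description over types that share libraries. For Cldn5 they were Ly6c1 (r = 0.993), Aplnr (0.992) and Tbx1 (0.991), for Abcb1a Cd93 (r = 0.989), Stap2 (0.983) and Gm32688 (0.980), and for Slco1a4 Lsr (r = 0.973), Tinagl1 (0.960) and Zfp820 (0.940). Ocln was most like Cdc37 (r = 0.984), Csrp2 (0.979) and Crybb3 (0.944). Slc2a1 was most like Slc16a1, the monocarboxylate carrier MCT1 (r = 0.954), Tbx4 (0.950) and Bmx (0.921). The likest genes were Id1 (r = 0.939), Eogt (0.931) and Nfkbia (0.916) for Slco1c1 and Sec61a1 (r = 0.940), Lsm2 (0.934) and Ctcf (0.931) for Abcg2. The highest value was lower for Mfsd2a and Tjp1, with Colgalt2 (r = 0.926), Rhbdl2 (0.906) and Dmac1 (0.901) for Mfsd2a and Ciart (r = 0.914), Dusp11 (0.889) and Abhd5 (0.882) for Tjp1. For Plvap, which reached 10 CPM in no type, the list was led by genes highest in neurons, Pak6 (r = 0.962), Galnt14 (0.960) and Casz1 (0.957).

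The 250 bases before the start of 3 of these genes are shown because Slco1c1 and Slco1a4 are carriers of 1 family on chromosome 6 that were both high in endothelial and in choroid plexus nuclei, and Cldn5 was the gene most restricted to vessels. They come from RefSeq (GRCm38.p6), 5′ to 3′ on the strand of the gene, with each CCAAT (or ATTGG, its reverse complement) in capitals.
Slco1c1, chr6:141524104-141524353 (+ strand): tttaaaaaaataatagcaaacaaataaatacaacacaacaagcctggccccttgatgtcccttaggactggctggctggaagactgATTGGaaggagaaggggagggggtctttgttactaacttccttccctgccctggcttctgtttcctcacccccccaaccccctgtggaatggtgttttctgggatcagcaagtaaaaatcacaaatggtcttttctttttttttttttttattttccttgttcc
Slco1a4, chr6:141856221-141856470 (- strand): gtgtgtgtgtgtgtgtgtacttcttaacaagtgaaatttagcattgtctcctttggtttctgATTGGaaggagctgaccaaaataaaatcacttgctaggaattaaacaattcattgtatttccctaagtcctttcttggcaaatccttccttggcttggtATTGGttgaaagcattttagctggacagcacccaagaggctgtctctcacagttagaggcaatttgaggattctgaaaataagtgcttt
Cldn5, chr16:18776597-18776846 (+ strand): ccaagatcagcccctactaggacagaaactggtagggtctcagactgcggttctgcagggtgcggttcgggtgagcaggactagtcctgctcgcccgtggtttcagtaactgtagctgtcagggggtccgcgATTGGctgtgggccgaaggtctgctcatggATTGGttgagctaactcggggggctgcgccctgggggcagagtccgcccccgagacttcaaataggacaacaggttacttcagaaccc

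RefSeq entries were found for 9 of the 10 genes, with 12 windows in all. CCAAT, on either strand, was in 5 of these 12 windows (of Cldn5, Mfsd2a, Ocln, Slco1a4 and Slco1c1), against 33.85% of all 32851 windows. The letters CTTTGA of TCF/LEF factors were in 2 of the 12 (of Abcb1a and Mfsd2a, 13.83% of all windows). ACAAAG of SOX factors was in 2 (of Abcb1a and Slco1c1, 16.46%) and CCGGAA of ETS factors in 1 (of Ocln, 12.03%). Both strands were searched, with no overlap among these letters counted. The longest run shared by the Slco1c1 and Slco1a4 windows was ctgATTGGaaggag, 14 bases that begin 167 bases before the start of Slco1c1 and 191 bases before that of Slco1a4. No other of the 32851 windows held this run. It was picked from these 2 windows, and how often a run of 14 bases recurs among windows was not counted, so that no weight rests on it. These are matches of letters, not binding sites.

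Endothelial nuclei were not uniform in these genes. The barrier genes were kept out of the genes used for clustering, but the clusters rest on the same nuclei, so their differences are given without a test. The largest cluster held 801 of the 1048 nuclei. A cluster of 120 nuclei was led by Eln, Bmx and Fbln5, genes of arteries, and a cluster of 127 by Apln, a gene of growing vessel tips, Piezo2 and Prnd. In the Apln cluster Slco1a4 was at 89.3 ± 43.4 CPM (SD, n = 6) against 2162 ± 201 CPM in the largest cluster, a ratio of 24.21. Every library of the Apln cluster was far below every library of the largest cluster for this gene, at 42.7 to 132 CPM against 2011 to 2519 CPM. Abcb1a was 6.44 times, Ocln 4.97 times, Slco1c1 3.63 times and Slc2a1 3.15 times as high in the largest cluster as in the Apln cluster. The ratio was smaller for Abcg2 (2.81), Tjp1 (2.58) and Mfsd2a (1.36). Cldn5 went the other way, at 1474 ± 474 CPM in the Apln cluster and 932 ± 96.7 CPM in the largest cluster, and these ranges did not overlap. The Bmx cluster was close to the largest one, with ratios of the largest over the Bmx cluster from 1.00 for Slc2a1 to 1.52 for Tjp1. Hbb-bs-led nuclei had 2.40 times the Cldn5 level and 1.78 times the Mfsd2a level of the largest cluster, but 0.67 times the Tjp1 and 0.66 times the Abcg2 level. The 11 pericyte markers summed to 3745 CPM in Hbb-bs-led nuclei, 3534 CPM in the Bmx cluster, 1869 CPM in the Apln cluster and 733 CPM in the largest cluster. The 6 capillary endothelial markers summed to 6580, 1644, 1242 and 2366 CPM in the same order, so that Hbb-bs-led nuclei were highest for these too. The 9 venous endothelial markers summed to 1280, 1375, 2780 and 2546 CPM. A sum is weighted to abundant markers. As the mean log2 ratio per marker to these clusters pooled, venous markers were at -0.567, -0.452, -0.884 and 0.078, lowest in the Apln cluster. By this measure pericyte markers were at 0.753, 1.424, -0.484 and -1.355, highest in the Bmx cluster. Capillary markers were at 0.833, -1.02, -1.351 and -0.361, all in the same order of clusters. The part of these markers in the levels was not tested.

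**Figure D2:**
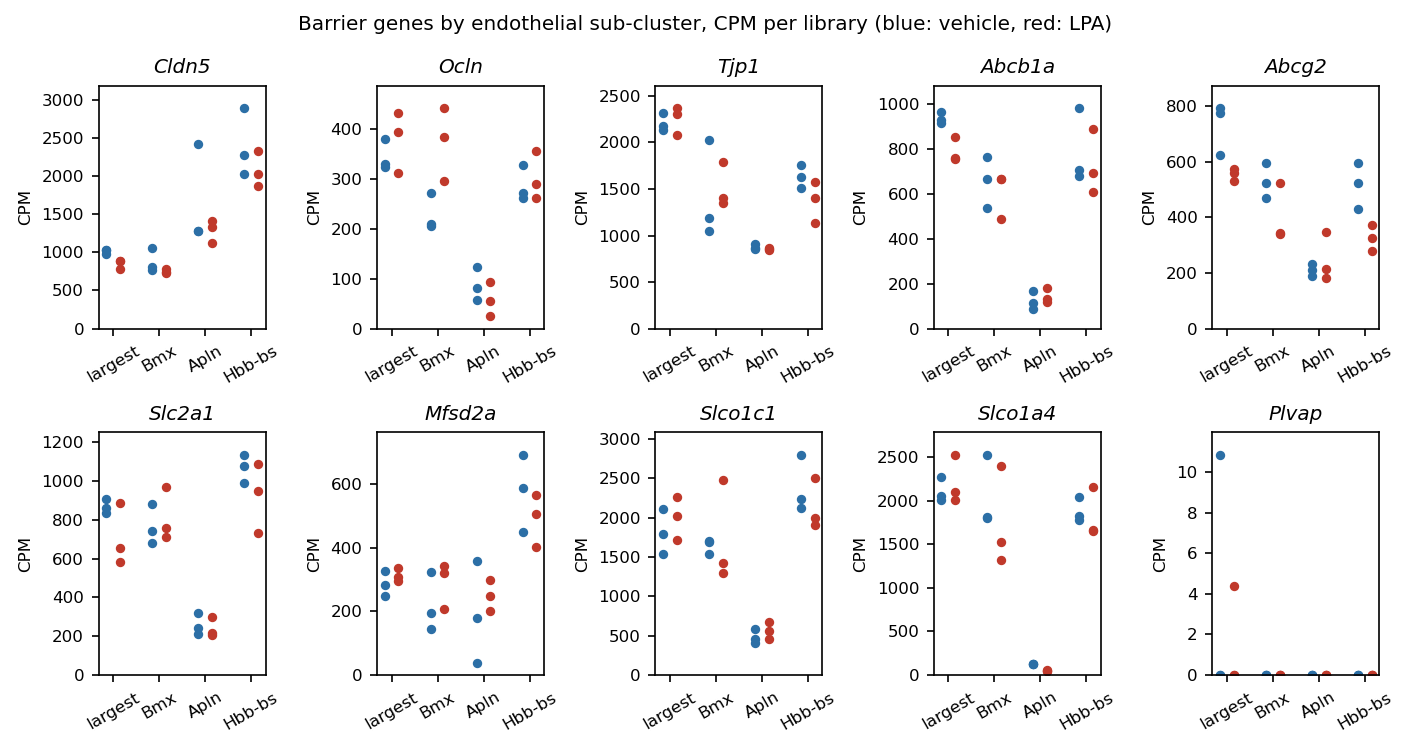
CPM of each barrier gene per library (points, blue vehicle and red LPA) in the largest endothelial cluster, the Bmx and Apln clusters and the Hbb-bs-led nuclei. Slco1a4 falls to 42.7 to 132 CPM in the Apln cluster, while Cldn5 there is at 1126 to 2423 CPM, above the largest cluster at 779.6 to 1028 CPM.

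The first comparison asked whether barrier genes of endothelial nuclei differ between LPA-injected and vehicle-injected brains at P15. None of the 9 genes with enough UMIs to be tested changed by edgeR's quasi-likelihood test with Benjamini-Hochberg adjustment, where a gene was called if its adjusted p was below 0.05 and its log2 fold change 0.25 or more in either direction. In the same fit 0.159% of 7543 genes were called (12 genes) and 559 genes had an unadjusted p under 0.05, among them Abcg2. DESeq2 also called 0 of the 9.

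Abcg2 had the largest difference. Its level was 479, 493 and 482 CPM in LPA libraries 1, 2 and 3 and 667, 552 and 691 CPM in vehicle libraries 1, 2 and 3. Every LPA library lay below every vehicle library. The log2 fold change was -0.40 (95% interval -0.66 to -0.14) with an adjusted p = 0.323 by edgeR's quasi-likelihood test, so that it was not called. Abcb1a, the other efflux pump, was at 743, 655 and 597 CPM in LPA libraries 1, 2 and 3 and 779.9, 789.5 and 791 CPM in vehicle libraries 1, 2 and 3. Here too every LPA library lay below every vehicle library (log2 fold change -0.25, interval -0.51 to 0.01, edgeR adjusted p = 0.669). With 3 against 3 libraries such a separation has a p of 0.1 by the two-sided exact permutation test, the smallest possible. The share of all genes that separate in this way was not counted, so that these separations have no background to be read against.

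Among the junction genes, Cldn5 was at 919, 826 and 999.7 CPM in LPA libraries 1, 2 and 3 and 1259, 1013 and 996 CPM in vehicle libraries 1, 2 and 3. Library LPA 3 lay within the vehicle range, just above vehicle 3, and the other LPA libraries lay below. The log2 fold change was -0.26 (interval -0.52 to 0.01, edgeR adjusted p = 0.669). Ocln, whose protein occludin sits beside claudins in the junction, was at 364, 348 and 267 CPM in the LPA libraries and 315, 275 and 295 CPM in the vehicle libraries, and the LPA values spanned the vehicle range (log2 fold change 0.14, interval -0.15 to 0.43). Tjp1 was at 2033, 2044 and 1757 CPM in the LPA libraries and 1955, 1805 and 1997 CPM in the vehicle libraries, again with overlap, and its log2 fold change of 0.01 had an interval of -0.22 to 0.24.

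Of the carriers, Slc2a1 was at 565, 797 and 577 CPM in LPA libraries 1, 2 and 3 and 742, 762 and 808 CPM in vehicle libraries 1, 2 and 3. Libraries LPA 1 and LPA 3 were below the vehicle range and LPA 2 was inside it (log2 fold change -0.26, interval -0.54 to 0.02). Mfsd2a was at 280.1, 290.0 and 328 CPM in the LPA libraries and 299, 268 and 228 CPM in the vehicle libraries, with LPA 3 above the vehicle range and the other LPA libraries inside it (log2 fold change 0.18, interval -0.11 to 0.46). Slco1c1 was at 1742, 1523 and 1874 CPM in the LPA libraries and 1788, 1621 and 1416 CPM in the vehicle libraries. Here the groups overlapped, and the log2 fold change was 0.08 (interval -0.17 to 0.34). Slco1a4 was at 2062, 1701 and 1638 CPM in the LPA libraries and 1944, 1768 and 1767 CPM in the vehicle libraries, with LPA libraries on both sides of the vehicle range (log2 fold change -0.03, interval -0.27 to 0.22). A missed threshold does not show that the groups were alike, and the intervals give the sizes that these libraries leave possible. Plvap had too few UMIs for the test. Across 17 other settings of the analysis none of the 9 genes was called in endothelial nuclei. In the largest endothelial cluster alone, the log2 fold change was -0.41 (adjusted p = 0.261) for Abcg2, -0.26 (adjusted p = 0.62) for Abcb1a and -0.26 (adjusted p = 0.618) for Cldn5 (edgeR). The Apln cluster held 15 of 146, 22 of 208 and 33 of 171 endothelial nuclei in LPA libraries 1, 2 and 3. In vehicle libraries 1, 2 and 3 it held 19 of 138, 17 of 169 and 21 of 216. The part of this mix in the values was not tested.

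Markers of 4 other cell types did not overlap between groups in endothelial nuclei. The endothelial markers themselves, with the sums given above, were higher in LPA, also without overlap. Such a separation has a p of 0.1 for any 1 of the lists compared (two-sided exact permutation test). Meningeal fibroblast markers (13 genes) summed to 136 to 482 CPM in LPA and 549 to 768 CPM in vehicle libraries, with 1 of them at 0 in the LPA group. Oligodendrocyte markers (12 genes, all detected) summed to 1087 to 1343 CPM in LPA and 1417 to 1942 CPM in vehicle libraries. In the other direction, neuron markers (14 genes, 2381 to 2607 against 2125 to 2358 CPM) and microglia markers (13 genes, 228 to 262 against 178 to 226 CPM) were higher in LPA, given as LPA against vehicle libraries, with 1 microglia marker at 0 in the vehicle group. The part of these markers in the values above was not tested. Pericyte markers (11 genes) summed to 1176 to 1719 CPM in LPA and 851 to 1353 CPM in vehicle libraries, which overlapped. Endothelial nuclei made up 1.97% ± 0.164 of LPA and 1.70% ± 0.220 of vehicle nuclei (SD, n = 3 each), a difference of 0.272 percentage points (two-sided exact permutation test, p = 0.3, where 0.1 is the smallest p that 3 against 3 libraries allow).

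**Figure D3:**
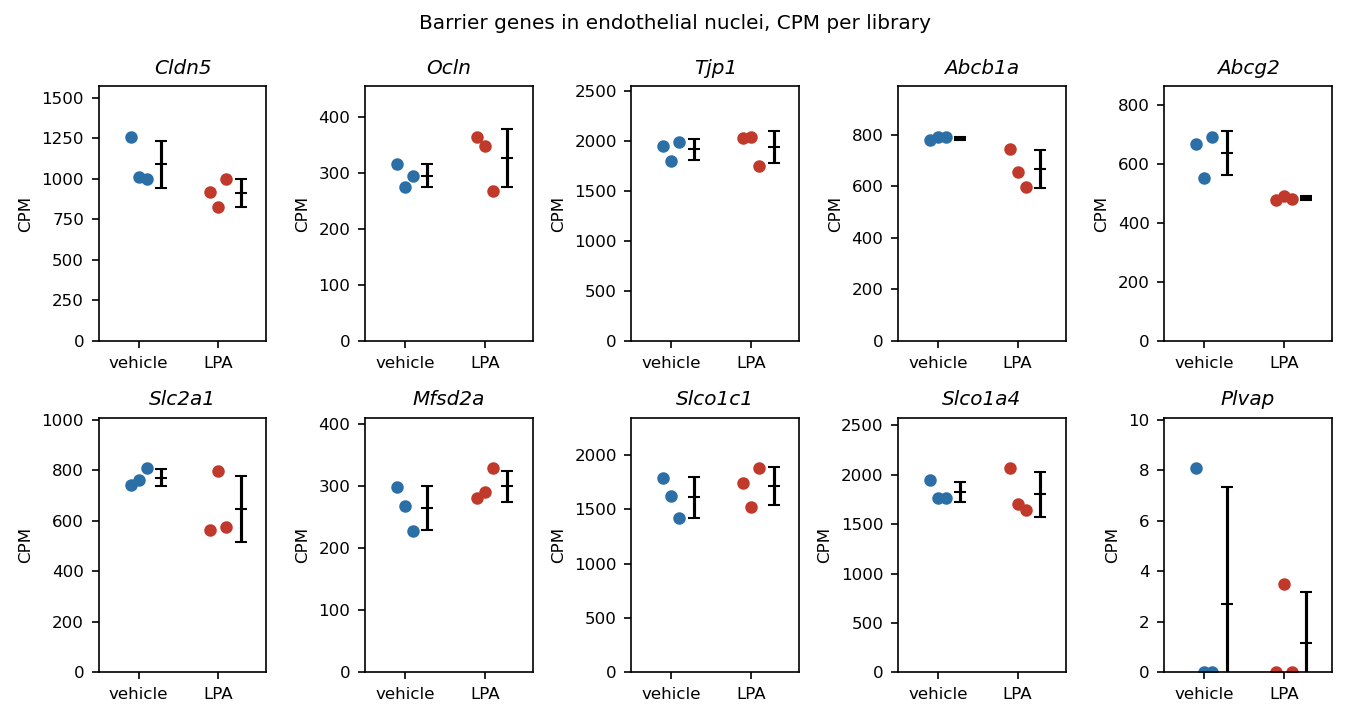
CPM of each barrier gene in endothelial nuclei per library (blue vehicle, red LPA), with the mean and SD of each group in black (n = 3). The LPA points of Abcg2 (479, 493 and 482 CPM) and of Abcb1a (743, 655 and 597 CPM) are all below the vehicle points (667, 552 and 691 CPM and 779.9, 789.5 and 791 CPM), and the groups overlap for Cldn5, Ocln, Tjp1, Slc2a1, Mfsd2a, Slco1c1 and Slco1a4. The share of all genes whose groups separate was not counted.

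Of the 99 pairs of a barrier gene and a cell type that could be tested, 9 were called, and they fell in 5 of the 15 types. In astrocytes, where 8.23% of 14597 genes were called, 3 of the 9 barrier genes tested changed. Mfsd2a fell. Its level in astrocytes was 65.4, 74.4 and 63.1 CPM in LPA libraries 1, 2 and 3 and 112, 94.9 and 94.1 CPM in vehicle libraries 1, 2 and 3. Every LPA library lay below every vehicle library, and edgeR's quasi-likelihood test gave a log2 fold change of -0.54, SE 0.09, adjusted p = 0.000442. This call held in each of the 15 other settings run over all astrocytes. Slc2a1 fell too, from 57.0, 45.0 and 42.9 CPM in the vehicle libraries to 38.6, 36.4 and 34.1 CPM in the LPA libraries, again without overlap (log2 fold change of -0.37, SE 0.10, adjusted p = 0.0304, edgeR). This call was lost without LPA 2, LPA 3 or vehicle 1, with an edgeR adjusted p of 0.106 and 0.119 without LPA 2 and 3, respectively, and 0.0869 without vehicle 1, and DESeq2 gave 0.0727. Tjp1 rose, from 843, 793 and 805 CPM in the vehicle to 1016, 895 and 971 CPM in the LPA libraries, which did not overlap (log2 fold change of 0.26, SE 0.07, adjusted p = 0.0187, edgeR). Its edgeR adjusted p was 0.108 and 0.0671 without LPA 1 and 3, respectively, and 0.059 and 0.0654 without vehicle 2 and 3, respectively, and with finer clusters its log2 fold change of 0.24 fell short of the limit of 0.25. Slco1c1 was not called (log2 fold change 0.19, edgeR adjusted p = 0.0989), at 568, 554 and 548 CPM in the LPA libraries and 499.9, 529.8 and 454 CPM in the vehicle libraries. Endothelial markers (14 genes) summed to 95.7 to 108 CPM in LPA and 86.7 to 103 CPM in vehicle astrocytes. Meningeal fibroblast markers (13 genes) summed to 190.4 to 207 CPM in LPA and 237 to 249 CPM in vehicle astrocytes, and oligodendrocyte markers (12 genes) to 1026 to 1204 CPM in LPA and 1249.5 to 1727 CPM in vehicle astrocytes. The astrocyte markers themselves (14 genes) were lower in LPA, at 24333 to 25612 against 26845 to 27582 CPM. Ependymal markers (13 genes, 101 to 106 against 51.9 to 63.6 CPM) and choroid plexus markers (12 genes, 149 to 163 against 91.6 to 146 CPM) were higher in LPA astrocytes without overlap. Arachnoid border markers (8 genes, 119.8 to 152 against 172 to 199.7 CPM), erythroid markers (6 genes, 31.6 to 44.1 against 47.0 to 82.6 CPM), capillary endothelial markers (6 genes, 178 to 182 against 197 to 200.4 CPM) and lymphatic endothelial markers (5 genes, 19.7 to 28.9 against 30.5 to 35.9 CPM) were lower without overlap, again as LPA against vehicle. The part of these in the results was not tested.

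The astrocytes came from 3 clusters whose shares differed between groups. The cluster led by Slc1a2 held 49.05% of LPA and 56.72% of vehicle astrocyte nuclei, that led by Slc6a11 25.76% and 31.28%, and that led by Gfap, a gene of reactive astrocytes and of astrocytes near the ventricles and the brain surface, 25.2% (1360 nuclei) and 12% (590). In the Slc1a2 cluster Mfsd2a was at 83.6, 86.4 and 78.2 CPM in LPA and 132, 109 and 109 CPM in vehicle libraries (log2 fold change -0.45, edgeR adjusted p = 0.00746), so that it was lower in LPA there too. In the Gfap cluster its level was lower in both groups and the direction was opposite, at 31.7, 41.5 and 26.3 CPM in LPA and 13.8, 15.6 and 22.1 CPM in vehicle libraries (log2 fold change 1.04, edgeR adjusted p = 0.0384). These levels rest on few counts, 156 Mfsd2a UMIs in the LPA nuclei of this cluster and 22 in its vehicle nuclei. The effect of LPA on Mfsd2a in the Gfap cluster minus that in the Slc1a2 cluster was 1.47, SE 0.31, adjusted p = 0.00153 by edgeR's interaction test, in which 4.07% of 12777 genes passed. Tjp1 rose in the Gfap cluster, from 620.5, 539.6 and 545 CPM to 997, 881 and 1035 CPM, with a log2 fold change of 0.87 (edgeR adjusted p = 5.56e-06) against 0.22 (0.131) in the Slc1a2 cluster, and the difference was 0.65, SE 0.09, adjusted p = 3.9e-06. Slco1c1 followed the same order, at 518, 488 and 408 CPM in LPA and 228, 287 and 221 CPM in vehicle libraries of the Gfap cluster, without overlap, and its difference between these clusters was 0.80, SE 0.11, adjusted p = 2.58e-06. For Slc2a1 the difference was not called (-0.08, SE 0.28, adjusted p = 0.953, edgeR). The single-cluster fits and these differences were added after the values by type had been seen.

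In ependymal nuclei, the ciliated cells that line the ventricles, 3 of the 8 barrier genes tested changed, against 4.07% of all genes. Ocln fell. It was at 58.7, 62.3 and 54.1 CPM in LPA libraries 1, 2 and 3 and 119, 74.6 and 95.8 CPM in vehicle libraries 1, 2 and 3. The LPA libraries were close together and all below the vehicle libraries (log2 fold change of -0.78, SE 0.18, adjusted p = 0.0148, edgeR), and the adjusted p was 0.0853 without LPA 3 and 0.188 without vehicle 1. Slc2a1 fell as well, to 70.2, 66.5 and 67.6 CPM in the LPA libraries against 142, 72.4 and 115 CPM in the vehicle libraries. The groups did not overlap, but vehicle 2 was close to LPA 1 (log2 fold change of -0.75, SE 0.19, adjusted p = 0.0239, edgeR). The call for Slc2a1 rested on most of the libraries, since the edgeR adjusted p was 0.0665 and 0.0993 without LPA 2 and 3, respectively, and 0.291 and 0.0613 without vehicle 1 and 3, respectively. Slco1c1 rose, from 108, 124 and 53.6 CPM to 211, 205 and 132 CPM, with vehicle 2 just below LPA 3 (log2 fold change of 0.92, SE 0.21, adjusted p = 0.0148, edgeR), and the adjusted p was 0.0553 without LPA 1 and 0.067 without vehicle 3. DESeq2 called none of the 3 genes in ependymal nuclei. Abcg2 and Slco1a4 had log2 fold changes of -1.17 and -1.14 and were not called (edgeR adjusted p = 0.0514 and 0.168). The ependymal markers (13 genes) summed to 11342 to 12318 CPM in LPA and 10609 to 11794 CPM in vehicle libraries. Oligodendrocyte markers (12 genes, all detected) summed to 1263 to 1816 CPM in LPA and 2873 to 3937 CPM in vehicle ependymal nuclei, and choroid plexus markers (12 genes, all detected) to 238 to 379 CPM in LPA and 492 to 561 CPM in vehicle ependymal nuclei, without overlap in either case. Microglia markers (13 genes, 372 to 481 against 251 to 369 CPM) and macrophage markers (9 genes, 87.1 to 113 against 29.4 to 65.5 CPM) were higher in LPA than in vehicle ependymal nuclei, also without overlap, with 2 macrophage markers at 0 in LPA and 4 in vehicle. Choroid plexus nuclei themselves had 107 CPM of Ocln, 313 CPM of Slco1c1 and 35.3 CPM of Slc2a1. The part of these markers in the results was not tested.

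In meningeal fibroblasts, where 1.07% of the genes were called, 1 of the 8 barrier genes tested changed. Slco1a4 fell, from 113, 72.5 and 89.4 CPM in the vehicle libraries to 53.4, 50.7 and 62.4 CPM in the LPA libraries, without overlap (log2 fold change of -0.70, SE 0.17, adjusted p = 0.0401, edgeR). The call was lost with an edgeR adjusted p of 0.109, 0.244 and 0.0709 without LPA 1, 2 and 3, respectively, and 0.148 and 0.0855 without vehicle 1 and 3, respectively, and DESeq2 gave 0.134. By cluster, none of the differences passed the test. The largest was in a cluster led by Bmp6 and Sidt1 (111 LPA and 570 vehicle nuclei), at 39.4, 129.9 and 72.5 CPM in LPA and 153, 142 and 189 CPM in vehicle libraries (log2 fold change -0.85, edgeR adjusted p = 0.211). A cluster led by Aox3 (217 LPA and 620 vehicle nuclei) had 91.7, 56.3 and 63.9 CPM and 91.5, 57.8 and 48.3 CPM, with a log2 fold change of 0.14 in the other direction (edgeR adjusted p = 0.941). The Bmp6 cluster held 14.14% of LPA and 27.0% of vehicle fibroblast nuclei. Endothelial markers (14 genes) summed to 268 to 290.3 CPM in LPA and 328 to 355 CPM in vehicle fibroblast nuclei. Oligodendrocyte markers (12 genes, 1230.1 to 1354 against 1399.7 to 2050 CPM), smooth muscle markers (10 genes, 270 to 275 against 329 to 364 CPM) and erythroid markers (6 genes, 23.1 to 47.0 against 59.9 to 78.8 CPM) were lower too in LPA than in vehicle libraries without overlap. Choroid plexus markers (12 genes, 587 to 648 against 493 to 532 CPM), of a type with more Slco1a4, were higher in LPA, as were the meningeal fibroblast markers themselves (13 genes, 9689 to 10142 against 8971 to 9163 CPM). The part of these markers in this result was not tested. Between the 2 largest clusters of the class, led by Ptgds and by Aox3, the effect of LPA on Tjp1 differed (0.56, SE 0.14, adjusted p = 0.0429, edgeR, 0.108% of 7419 genes passed). Its level in the Ptgds cluster (266 LPA and 568 vehicle nuclei) was 811, 817 and 855 CPM in LPA and 788, 689 and 752 CPM in vehicle libraries. In the Aox3 cluster it was 1364, 1202 and 1110.3 CPM in LPA and 1774, 1562 and 1541 CPM in vehicle libraries, so that the groups did not overlap in either cluster and lay in opposite order.

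In Gm6260-led nuclei of the meninges, with 19 to 64 nuclei per library, 1 of the 3 barrier genes tested was called, against 0.77% of 2596 genes. Tjp1 rose. It was at 1977, 1737 and 1842 CPM in LPA libraries 1, 2 and 3 and 1147, 1320.3 and 967 CPM in vehicle libraries 1, 2 and 3. The groups were far apart (log2 fold change of 0.68, SE 0.16, adjusted p = 0.0284, edgeR). The adjusted p was 0.0749 and 0.0656 without LPA 2 and 3, respectively, and 0.127 and 0.252 without vehicle 1 and 3, respectively. DESeq2 called it as well, at an adjusted p of 0.0398. The 13 meningeal fibroblast markers summed to 4701 to 5733 CPM in LPA and 5513 to 6108 CPM in vehicle libraries, and 8 arachnoid border markers (1 at 0 in LPA and 2 in vehicle) to 572 to 1108 CPM in LPA and 913 to 1064 CPM in vehicle libraries. Macrophage markers (9 genes, 200.3 to 241 against 269.9 to 300.3 CPM) were lower in LPA without overlap, with 6 of them at 0 in LPA and 4 in vehicle. Their part in this result was not tested. In the neighboring Dpp4-led nuclei, where Tjp1 was highest, it was at 3450.3, 3559.6 and 4143 CPM in the LPA libraries and 3262, 2894 and 3119 CPM in the vehicle libraries and was not called (log2 fold change 0.24, edgeR adjusted p = 0.685). The groups did not overlap there, but the share of all genes that separate in these nuclei was not counted.

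In microglia, where 8.6% of the genes were called, 1 of 5 barrier genes tested changed. Tjp1 fell, from 454, 422 and 389 CPM in the vehicle libraries to 264, 293 and 252 CPM in the LPA libraries, far apart from each other (log2 fold change of -0.65, SE 0.13, adjusted p = 0.00159, edgeR), and it was called in each of the 15 other settings run over all microglia. The microglia of the groups came from different clusters. A cluster led by Stab1 held 294 LPA nuclei and 1 vehicle nucleus, a cluster led by Gpnmb, a gene of activated phagocytes, 176 LPA and 0 vehicle nuclei, and a cluster led by Runx1 224 LPA and 10 vehicle nuclei. As pooled counts, Tjp1 was at 157, 141 and 219.9 CPM in the LPA nuclei of these clusters. Within the largest cluster with nuclei of both groups, led by Inpp5d (331 LPA and 312 vehicle nuclei), it was at 433 CPM in LPA and 442 CPM in vehicle nuclei, and the log2 fold change over libraries was -0.07 (edgeR adjusted p = 0.974). In a cluster led by Csf1r (235 LPA and 188 vehicle nuclei) it was -0.20 (0.893). Macrophage markers (9 genes, 2 at 0 in vehicle) summed to 1742 to 2325 CPM in LPA and 287 to 505 CPM in vehicle microglia, and oligodendrocyte markers (12 genes) to 1684 to 1864 CPM in LPA and 2218 to 3134 CPM in vehicle microglia. Neuron markers (14 genes, 3705 to 4326 against 4864 to 7102 CPM), meningeal fibroblast markers (13 genes, 133 to 212 against 217 to 239 CPM), smooth muscle markers (10 genes, 72.2 to 81.6 against 85.1 to 121 CPM) and lymphocyte markers (7 genes, 157 to 199 against 249.7 to 298 CPM) were lower in LPA without overlap, as were the microglia markers themselves (13 genes, 8351 to 8902 against 9072 to 11464 CPM). Markers of arterial (23.4 to 26.5 against 34.1 to 50.4 CPM), capillary (557 to 738 against 912 to 1061 CPM), venous (503 to 539 against 636 to 701 CPM) and lymphatic endothelium (56.4 to 76.7 against 93.3 to 115 CPM) were lower as well. Ependymal markers (13 genes, 67.2 to 91.4 against 31.9 to 51.1 CPM) and fenestrated endothelial markers (7 genes, 1029 to 1157 against 491 to 556 CPM) were higher. Oligodendrocytes themselves had a Tjp1 level of 1278 ± 27.9 CPM and neurons one of 425 ± 21.5 CPM. The part of these markers in the result was not tested.

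**Figure D4:**
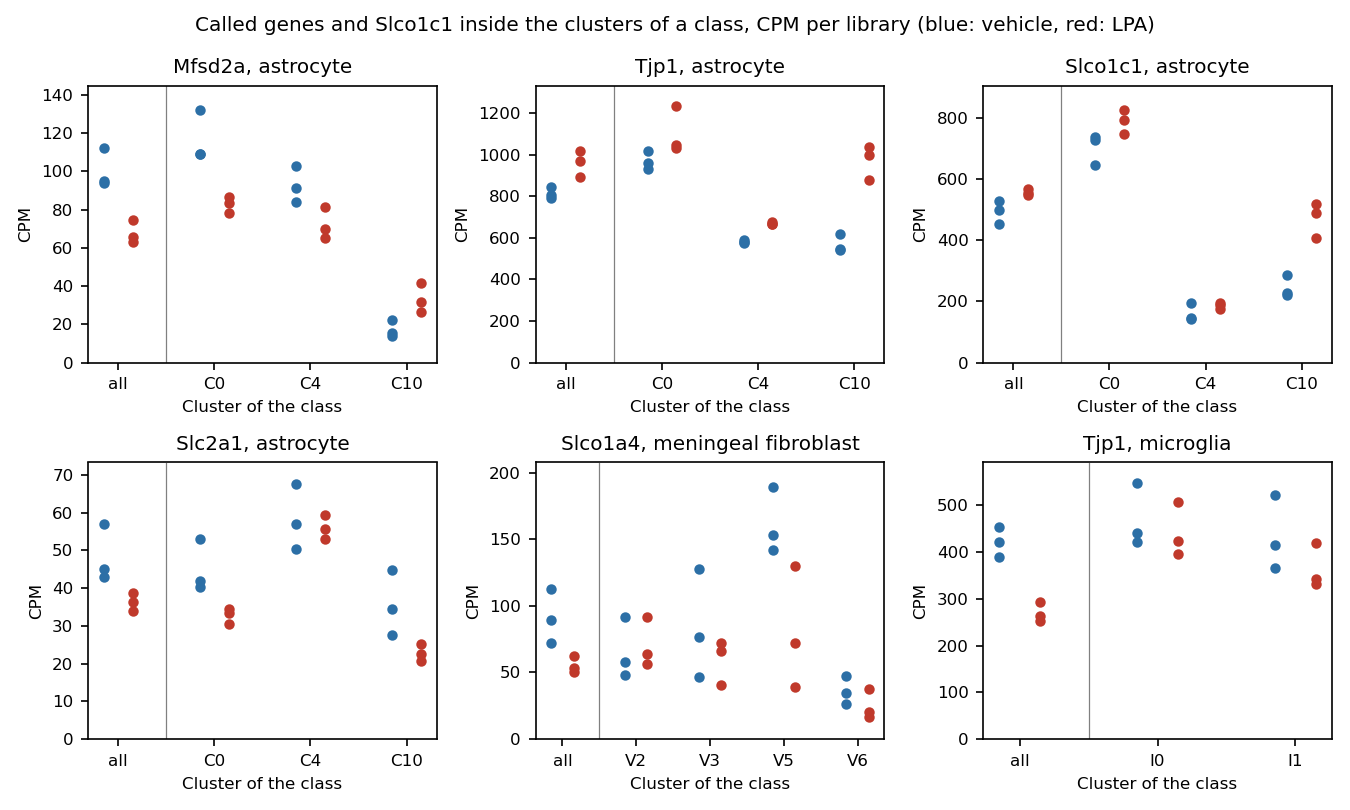
CPM per library (blue vehicle, red LPA) of the genes named in each panel, for all nuclei of a type and for its clusters with at least 10 nuclei in every library. In the panel of Mfsd2a the LPA points are below the vehicle points in all astrocytes and in cluster C0 (Slc1a2-led) and above them in cluster C10 (Gfap-led), and in the panel of Tjp1 in microglia the groups separate over all nuclei and overlap in I0 (Inpp5d-led) and I1 (Csf1r-led). The other clusters shown are led by Slc6a11 (C4), Aox3 (V2), Ptgds (V3), Bmp6 (V5) and Lama1 (V6).

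In the other 10 types no barrier gene was called by edgeR or by DESeq2. Beside endothelial nuclei these were choroid plexus nuclei (7 genes tested, 0.0497% of all genes called), pericytes (5 genes, 0.185%), neurons (10 genes, 0.0760%), oligodendrocytes (9 genes, 0.377%), oligodendrocyte precursors (7 genes, 0.290%), macrophages (1 gene, 0%) and the Hbb-bs-led (9 genes, 0%), Slc47a1-led (4 genes, 0.856%) and Dpp4-led nuclei (5 genes, 0.0580%). An unadjusted p under 0.05 was found for 1 barrier gene in choroid plexus, 2 in neuron and 1 in Hbb-bs-led nuclei. Over all genes tested in these types it was found for 615 of 10053, 1092 of 15780 and 166 of 2491. In the choroid plexus, Slco1c1 was at 332, 253 and 266 CPM in the LPA libraries and 362, 318 and 345 CPM in the vehicle libraries and Slco1a4 at 226, 249 and 189 CPM in the LPA libraries and 201, 171 and 193 CPM in the vehicle libraries, with log2 fold changes of -0.26 (interval -0.51 to -0.02) and 0.24 (interval -0.02 to 0.50). The groups overlapped for both. In Slc47a1-led nuclei Abcb1a was at 266, 249 and 259.7 CPM in the LPA libraries and 288, 212 and 222 CPM in the vehicle libraries and Abcg2 at 446, 501 and 469.7 CPM in the LPA libraries and 459.9, 454 and 394 CPM in the vehicle libraries, with log2 fold changes of 0.13 (interval -0.16 to 0.42) and 0.13 (interval -0.11 to 0.37). Abcg2 in Hbb-bs-led nuclei had a log2 fold change of -0.67 (edgeR adjusted p = 0.622), at 372, 326 and 280.3 CPM in the LPA libraries and 523, 595 and 429.7 CPM in the vehicle libraries. These Abcg2 values did not overlap, but the share of all genes that separate in Hbb-bs-led nuclei was not counted. The log2 fold change of Abcg2 was below 0 in 12 of the 14 types in which it was tested, from -1.17 in ependymal nuclei, and above 0 in Slc47a1-led and choroid plexus nuclei. All types come from the same 6 libraries, so that these are not 14 separate observations.

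**Figure D5:**
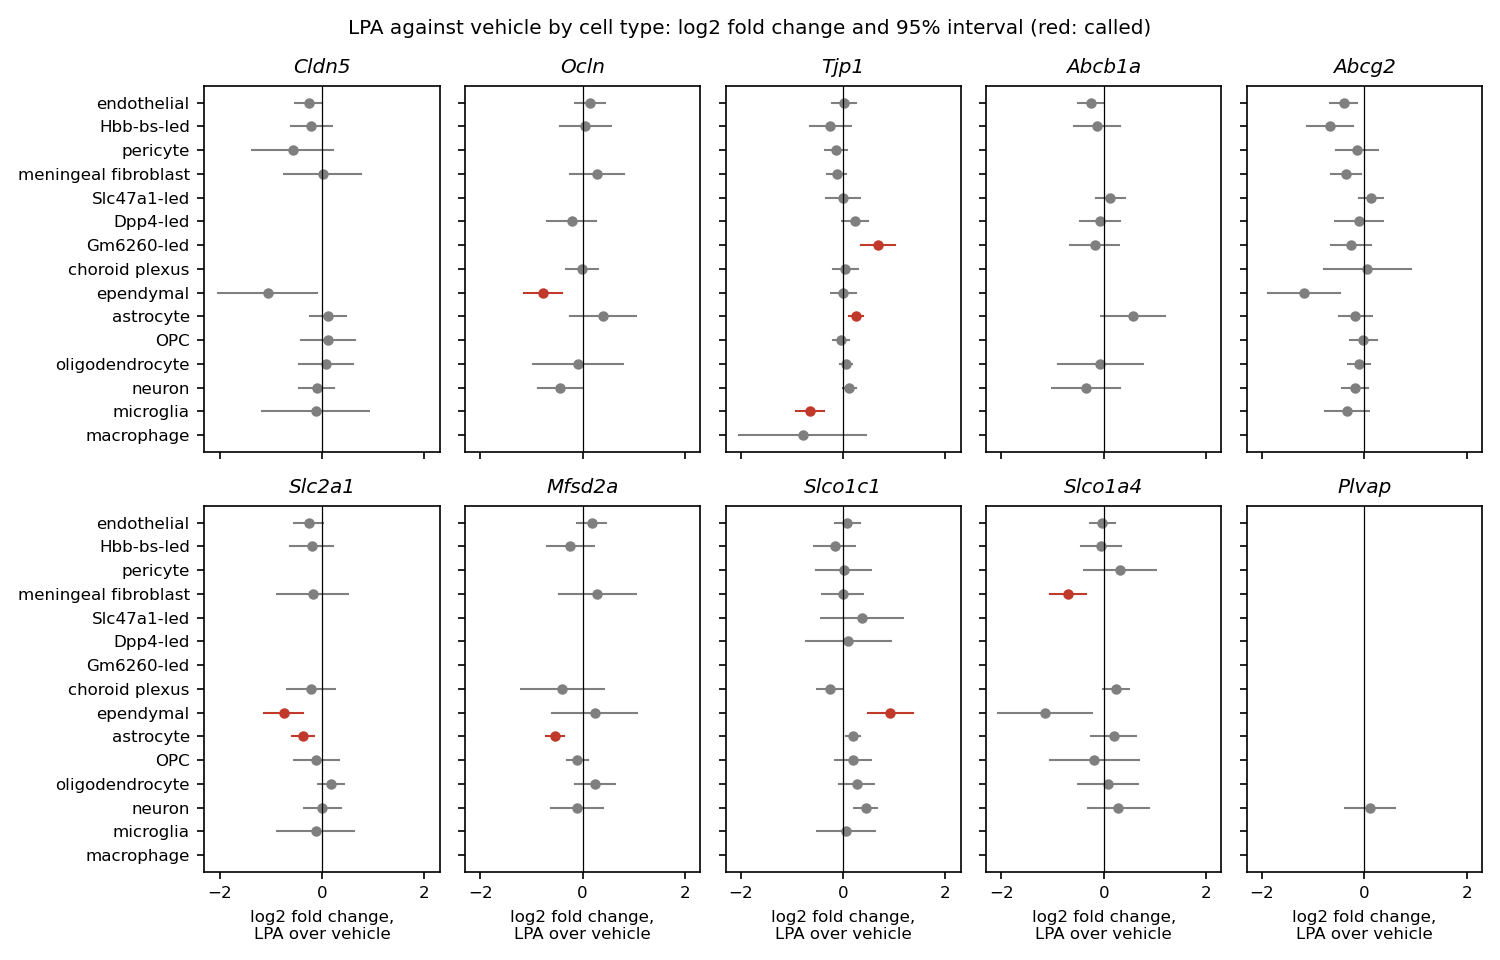
Log2 fold change of LPA over vehicle with its 95% interval for each barrier gene (panels) in each cell type where it was tested (rows), with called pairs in red. The 9 red points are Slc2a1, Mfsd2a and Tjp1 in astrocytes, Slc2a1, Ocln and Slco1c1 in ependymal nuclei, Slco1a4 in meningeal fibroblasts and Tjp1 in Gm6260-led nuclei and microglia, and no endothelial point is red.

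Over all nuclei of a library together, where 5.62% of 20207 genes were called, Abcg2 fell and Slco1c1 rose. Abcg2 was at 37.2, 41.4 and 37.6 CPM in LPA libraries 1, 2 and 3 and 48.5, 48.7 and 46.2 CPM in vehicle libraries 1, 2 and 3 (log2 fold change of -0.30, SE 0.05, adjusted p = 0.0163, edgeR). Every LPA library lay below every vehicle library. The adjusted p was 0.0859 and 0.0631 without LPA 1 and 3, respectively, and 0.0524 and 0.0508 without vehicle 2 and 3, respectively. Slco1c1 was at 182, 177 and 155 CPM in the LPA libraries and 128, 136 and 111 CPM in the vehicle libraries, without overlap (log2 fold change of 0.46, SE 0.08, adjusted p = 0.0159, edgeR), and its adjusted p was 0.063 and 0.0652 without LPA 1 and 2, respectively. In such sums fewer nuclei of a type and less RNA per nucleus cannot be told apart. Slc47a1-led nuclei, which held 13.1% of the Abcg2 UMIs on average, were 1.07% ± 0.237 of LPA and 2.33% ± 0.243 of vehicle nuclei, and meningeal fibroblasts 2.94% ± 0.523 of LPA and 6.74% ± 0.534 of vehicle nuclei (SD, n = 3 each). Astrocytes, which held 44.8% of the Slco1c1 UMIs, were 20.4% ± 1.67 of LPA and 15.7% ± 1.17 of vehicle nuclei. Each of these shares gave the smallest p that the two-sided exact permutation test allows, 0.1.

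Whether a barrier gene responded differently in endothelial nuclei than in another barrier or glial type was tested as the difference of the log2 fold changes in 1 edgeR fit with the library as a block. Against astrocytes, Mfsd2a differed (0.76, SE 0.15, adjusted p = 0.00413), the 1 gene called of the 9 tested (0.520% of all genes passed). It fell in astrocytes and had a log2 fold change of 0.18 in endothelial nuclei. The edgeR adjusted p was 0.145 without LPA 3 and 0.0557 without vehicle 3, and DESeq2 gave 0.3, so that the call was lost there. Abcb1a, with 97 UMIs in astrocytes, had the difference of largest size, in the other direction, and was not called (-0.78, SE 0.31, adjusted p = 0.4155). The difference for Cldn5 was not called either (-0.32, SE 0.19, adjusted p = 0.72). Against meningeal fibroblasts (0.286% of all genes passed) none of the 9 passed, and Slco1a4 had the largest difference (0.67, SE 0.19, adjusted p = 0.176). Against the choroid plexus (0.0304%) none passed either, with the largest difference for Cldn5 (-0.99, SE 0.45, adjusted p = 0.897), a gene near 0 in choroid plexus nuclei (9.26 ± 3.24 CPM).

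The wider barrier program was read from 102 further genes in 5 lists, of junctions (28 genes), efflux (14), uptake (20), vesicles and receptors (16) and the Wnt program that induces the barrier (24). In endothelial nuclei 0 of the 82 genes with enough UMIs were called, with 7 at an unadjusted p under 0.05, and their median log2 fold change was 0.02 against -0.005 over all genes tested. No gene of the lists was called in meningeal fibroblasts (72 tested, 9 at an unadjusted p under 0.05), Slc47a1-led nuclei (51 and 11) or choroid plexus nuclei (65 and 8) either, and DESeq2 called 0 in each of these 4 types. Over all genes tested by edgeR, 559 of 7543 had such an unadjusted p in endothelial nuclei and 1120 of 11179 in meningeal fibroblasts. In Slc47a1-led nuclei these were 751 of 7708, and in choroid plexus nuclei 615 of 10053. In astrocytes 8 of 85 rose and 2 fell, where 8.23% of all genes were called. The risen genes include Abcc4, the efflux pump MRP4 (log2 fold change 0.56, edgeR adjusted p = 0.000769). Of the Wnt list, Nkd1 (0.72), Axin2 (0.40) and Tnfrsf19 (0.36) rose, while the receptor gene Fzd4 (-0.84) and the transcription factor gene Foxc1 (-1.82) fell. Slco1a5, a paralog of Slco1a4 at low level, rose (1.75), as did Ildr2 (0.30) and Slco3a1 (0.36). As given above, meningeal fibroblast and arachnoid border markers were among those lower in LPA astrocytes, and ependymal and choroid plexus markers were higher. The part of such markers in these changes was not tested. In ependymal nuclei (4.07% of all genes called) 1 of 61 rose, Tnfrsf19 (log2 fold change 1.24, edgeR adjusted p = 3.72e-05), and 4 fell. These were the junction gene Cldn11 (log2 fold change -0.93, edgeR adjusted p = 0.0138), Spns2, a sphingosine-1-phosphate exporter (log2 fold change -1.41, edgeR adjusted p = 0.0261), Slc12a2, the cotransporter NKCC1 (log2 fold change -0.61, edgeR adjusted p = 0.0328), and Slc22a8, an organic anion transporter (log2 fold change -1.71, edgeR adjusted p = 0.0394). With 1 library left out at a time, 2 to 4 of the 61 were called, and DESeq2 called 1. Scrublet called 20.61% of ependymal nuclei doublets, and without these 1 of the 61 was called. Oligodendrocyte and choroid plexus markers were also lower, and microglia and macrophage markers higher, in LPA ependymal nuclei. The part of these markers in the changes was not tested. In microglia (8.6% of all genes called) 5 of 51 rose and 4 fell, with Abca1, a lipid exporter, highest (log2 fold change 1.43, edgeR adjusted p = 1.95e-07) and Pecam1, an adhesion molecule, lowest (log2 fold change -1.32, edgeR adjusted p = 0.02). The other 4 that rose were Magi1, Slc6a6, Igf1r and Lrp6, and the other 3 that fell were Jam3, F11r and Slco2b1. Leaving out a library gave 3 to 9 calls there, with 4 without LPA 3 and 3 without vehicle 2. Ildr2, Slco3a1 and the ependymal and microglial genes were named after their values had been seen.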

How the data were processed

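Nuclei of 6 libraries were read from the deposited matrices, which hold UMI counts per gene as the authors obtained them with Cell Ranger 4.0.0 and a pre-mRNA mm10 reference, so that intronic reads are included. Nuclei were kept from 300 detected genes and up to 1% mitochondrial UMIs, without those of extreme depth (1.5 interquartile ranges per library). They were clustered with scanpy 1.11.5 (3000 variable genes without the barrier genes, 40 components, 30 neighbors, Leiden resolution 1). Vascular and immune nuclei were clustered again (2000 genes, 20 components, 20 neighbors), keeping the best partition of 20 seeds. Clusters were named from marker lists, with limits chosen once the clusters were known. Scrublet (expected rate 0.08) called 12.7% to 15.9% of nuclei per library as doublets. They were kept, except that clusters with over 50% of them stayed unnamed. UMIs were summed per library and type and tested with edgeR 4.0.16 (R 4.3.3) by the quasi-likelihood test with TMM, filterByExpr and Benjamini-Hochberg adjustment over all genes tested, in types with at least 10 nuclei in every library. SEs and 95% intervals derive from the F statistic. Shares of nuclei were compared by the exact permutation test (20 assignments). The code was tested on simulated data. Alternatives were DESeq2 1.42.0 or its size factors, no filter on low counts, the replicate number as a block, each library left out, no mitochondrial filter, Scrublet calls left out and resolution 2. Chosen after seeing the data were the sex of the library as a term, single clusters, the endothelial nuclei with the Hbb-bs-led nuclei and a sub-cluster partition of median quality. The 10 genes and the lists were chosen with earlier results of these data known. Named were the 10 genes, list genes called in barrier types and astrocytes (at most 8 per type), with Slc47a1-led nuclei in place of arachnoid border cells, and the 3 genes most like each barrier gene among those with at least 10 CPM in a type. Counting error only is covered by limits for a count of 0. A further list gene that was called is not reported here.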

Additional observations from a re-analysis of the deposited data

Results flagged for a closer look

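5 differences of the LPA effect between nuclei of different kinds passed the interaction test of edgeR, and no explanation of them is weighed here. The log2 fold change of Mfsd2a in endothelial nuclei minus that in astrocytes was 0.76. In the Gfap-led minus the Slc1a2-led astrocyte cluster it was 1.47 for Mfsd2a, 0.65 for Tjp1 and 0.80 for Slco1c1. In the Ptgds-led minus the Aox3-led cluster of meningeal fibroblasts it was 0.56 for Tjp1. The cluster pairs were chosen after the values by type had been seen. For Mfsd2a, the vehicle nuclei of the Gfap-led cluster held only 22 UMIs.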

How the results depend on the processing

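Counts of called genes and the share of endothelial nuclei were compared with the main setting under the alternatives. A count stayed if it was equal or within a ratio of 1.5, so that 3 falling to 2 counts as stayed. The share stayed if its sign and outcome did. By this rule 346 stayed and 50 moved. Of the values of single genes, 413 stayed, 57 lost their call, 14 changed sign and 3 gained a call. Another 7, mean levels, moved by an SD or more. The cause was not tested unless the setting states it. The barrier genes called in ependymal nuclei went from 3 to 0 by DESeq2, 5 with no filter on low counts, 1 with the sex of the library in the fit, 5 with no mitochondrial filter, and 1 to 3 with a library left out. Those in meningeal fibroblasts went from 1 to 0 by DESeq2 and to 0 with sex in the fit (0 to 1 with a library left out), and those in Gm6260-led nuclei from 1 to 0 with no filter, with sex in the fit and with no mitochondrial filter (0 to 1). In microglia they were 2 with no filter and 1 to 2 with a library left out, in astrocytes 1 to 2 with a library left out, and over all nuclei 0 to 2. Tjp1 in Gm6260-led nuclei had an edgeR adjusted p = 0.139 with no filter, 0.0531 with sex in the fit and 0.0514 with no mitochondrial filter.

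The genes of the barrier lists called were 1 in Slc47a1-led nuclei with no mitochondrial filter, 1 in choroid plexus and 1 in endothelial nuclei with no filter (0 to 1 in endothelial nuclei with a library left out, 1 of them without vehicle 1), and 1 in meningeal fibroblasts with no mitochondrial filter (0 to 1, 1 of them without vehicle 2). In ependymal nuclei the 5 became 1 by DESeq2, 1 without Scrublet calls, 3 at resolution 2 and 2 to 4 with a library left out, and in microglia the 9 became 4 by DESeq2 and 3 to 9. The 1 difference between endothelial nuclei and astrocytes became 0 by DESeq2 (0 to 1 with a library left out). Between endothelial nuclei and meningeal fibroblasts 1 gene, Slco1a4, was called with no filter and 1 with no mitochondrial filter.

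With sex in the fit the edgeR adjusted p was 0.0714 for Slc2a1 in astrocytes, 0.0509 for Ocln and 0.0982 for Slc2a1 in ependymal nuclei, and 0.137 for Slco1a4 in meningeal fibroblasts. Slc2a1 in ependymal nuclei had 0.0866 without Scrublet calls. Log2 fold changes that changed sign were those near 0 of Slco1a4 and Tjp1 in endothelial nuclei, and 2 within a cluster. Slco1a4 was at 0.0318 with sex in the fit, -0.1313 to 0.044 with a library left out (above 0 without LPA 2, LPA 3 or vehicle 1), 0.0085 with no mitochondrial filter and 0.0548 in the largest cluster alone. Tjp1 was at -0.032 to 0.0869 with a library left out (below 0 without LPA 1, LPA 2 or vehicle 2), -0.02 without Scrublet calls, -0.009 at resolution 2 and -0.0372 with the Hbb-bs-led nuclei. Slco1a4 was at 0.14 in the Aox3-led fibroblast cluster and Mfsd2a at 1.04 in the Gfap-led astrocyte cluster.

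With the replicate number as a replicate block, 3 barrier genes were called in astrocytes, 3 in ependymal nuclei, 1 each in microglia, meningeal fibroblasts and Gm6260-led nuclei and 0 in endothelial nuclei, as without it. The lists gave 9 called genes in astrocytes, 4 in ependymal nuclei and 8 in microglia with it. Libraries of the same number deviated together with correlations of -0.123 to 0.244, and those of different numbers with -0.282 to 0.204. With 3 libraries per group these values cannot show whether the numbers mark pairs. Few nuclei limit endothelial, Gm6260-led and macrophage values.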
